A study of Mus musculus with 5 samples.

Results

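The genes described here are 10 mouse transcription factor genes used as markers of extraembryonic and lateral mesoderm: Hand1, Hand2, Gata2, Gata4, Gata6, Foxf1, Prrx1, Runx1, Lmo2 and Tbx20. They were taken by symbol from the 32285 genes of the count tables, whatever their level. Each was followed across 5 single-cell libraries of mouse epiblast stem cells (EpiSCs, a wild-type line of 129 background derived from the epiblast of a gastrulation-stage embryo). All cultures were differentiated for 3 days with 1 µM of the Wnt agonist Chi (CHIR99201 in the labels) and 8 ng/ml BMP4. They received 0, 0.75, 3 or 12 ng/ml FGF2, or 30 nM of the FGF receptor inhibitor AZD4547 (FGFRi), for which no FGF2 dose is stated. Each condition is 1 library, so there is no replicate, no test between conditions and no p-value. The effect of a condition and the chance difference of a single culture cannot be told apart, and the 95% intervals given here cover counting error only.

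The libraries held 1696 to 2725 retained cells each, 10653 of 15375 deposited barcodes, with median depths of 24408 to 29661.5 unique molecular identifiers (UMIs, counted molecules) per cell. Pairs of libraries shared at most 2 retained barcodes. TMM scaling factors lay between 0.993 and 1.01. A level is the summed UMIs of a gene per 1000000 UMIs of the retained cells (CPM), with an exact Poisson interval, and a ratio of 2 levels has an exact conditional interval. Of the 10 genes, 5 reached 10 CPM in at least 1 library, namely Hand1, Gata2, Prrx1, Runx1 and Lmo2, as did 8761 of all 32285 genes. Hand2, Gata4, Gata6, Foxf1 and Tbx20 stayed below 10 CPM in all 5.

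As background, BMP signaling from the extraembryonic region acts on the proximal side of the gastrulating embryo, where extraembryonic mesoderm of the amnion, allantois and yolk sac forms, while the lateral plate gives rise to heart, gut wall, body wall and limb mesenchyme. HAND1 and HAND2 are basic helix-loop-helix factors of extraembryonic mesoderm, heart and limb. GATA factors bind the letters GATA, with GATA2 known for blood and endothelium and GATA4 and GATA6 for heart and endoderm. FOXF1 marks splanchnic mesoderm, PRRX1 mesenchyme, TBX20 the heart, and RUNX1 and the adapter protein LMO2 are required for blood formation. Several of them are not specific to mesoderm: Hand1 and Gata2 are also trophoblast genes, and Gata4 and Gata6 are also endoderm genes. Cells that enter mesoderm in the embryo replace E-cadherin (Cdh1) by N-cadherin (Cdh2), and T and Tbx6 mark primitive streak and presomitic cells.

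Upstream sequence was matched by symbol for 5 of the 10 genes in the RefSeq promoter table (mouse build GRCm38.p6), with 7 start sites in all. The stretches before a start of Gata2 and of Runx1 are shown because these 2 genes were lower with FGF2 and low in cells with T and Tbx6 UMIs. Both starts were chosen because their 250 upstream bases overlap no exon of the gene. Gata2 lies on the plus strand (chr6:88193891-88207032) and the window is chr6:88193641-88193890. Runx1 lies on the minus strand (chr16:92601466-92826149), and the window, chr16:92697330-92697579, precedes an internal start of the gene. Of the other genes at 10 CPM or more, Hand1 lies at chr11:57828705-57832818 and Prrx1 at chr1:163245119-163313710, both on the minus strand, and Lmo2 at chr2:103957986-103981878 on the plus strand. Capitals mark CpG dinucleotides.
Gata2: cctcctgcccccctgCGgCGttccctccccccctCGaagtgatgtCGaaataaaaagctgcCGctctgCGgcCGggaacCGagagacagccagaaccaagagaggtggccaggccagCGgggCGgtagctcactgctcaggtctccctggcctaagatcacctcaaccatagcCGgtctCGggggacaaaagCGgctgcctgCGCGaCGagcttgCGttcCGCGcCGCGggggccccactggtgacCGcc
Runx1: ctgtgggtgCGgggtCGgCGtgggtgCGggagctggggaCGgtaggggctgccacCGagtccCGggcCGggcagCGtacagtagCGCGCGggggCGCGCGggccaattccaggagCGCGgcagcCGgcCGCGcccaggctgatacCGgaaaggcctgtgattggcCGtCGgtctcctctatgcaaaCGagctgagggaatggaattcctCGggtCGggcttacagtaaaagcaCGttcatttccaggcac
The Gata2 window was 67.2% G or C with 22 CpG dinucleotides, and the Runx1 window 67.6% with 27, against medians of 52.4% and 6 over the 32536 promoter windows of that length. Both strands of both windows were searched for 6 motifs by the exact letters given next, and none was found. The shorter letters GATA do occur in the Runx1 window. The GATA motif GATAA is present in 22.5% of all windows and the E-box of helix-loop-helix factors, CANNTG, in 66.2%. The Runx motif TGTGGT is present in 14.0% and the Lef/Tcf motif ATCAAAG in 3.21%. The Ets motif CCGGAAG is present in 6.95% and the Smad motif GGCGCC in 9.65%. Each of these 2 genes has another start in the table, whose window overlaps an exon. For Gata2 that window was 74% G or C with 24 CpG dinucleotides and 1 Smad motif. For Runx1 it was 45.6% with 2 CpG dinucleotides and 3 E-boxes, so CpG richness does not hold for both Runx1 starts. The tables count whole genes, so the start in use was not measured.

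The 10 genes did not move as a block. Prrx1 and Runx1 were highest with the FGFRi, Hand1 and Gata2 were highest at 0 ng/ml, and Lmo2, Foxf1 and Gata4 were lowest with the FGFRi or at 0 ng/ml and higher at 3 and 12 ng/ml. To read single genes, a fixed rule of size was applied to all genes: a level of 10 CPM or more in 1 of the libraries compared, and a ratio of 2 or more. From the FGFRi to 0 ng/ml, 4 of the 10 genes reached the level, Prrx1 and Runx1 passed downward and Gata2 upward, where 7.99% of all 8445 genes at this level passed. From 0 to 0.75 ng/ml, Gata2 and Runx1 passed downward among 4, against 1.72% of genes. From 0.75 to 3 ng/ml none of 3 passed, against 0.859%, and from 3 to 12 ng/ml none of 2, against 0.0883%. Over the whole FGF2 range, from 0 to 12 ng/ml, Hand1, Gata2 and Runx1 passed downward and Lmo2 upward, 4 of 4, against 5.91%. From the FGFRi to 12 ng/ml, Prrx1 and Runx1 passed downward and Lmo2 upward among 4, against 20.4%. The median log2 ratio of the 4 genes at this level was -0.64 from the FGFRi to 0 ng/ml and -1.82 from 0 to 12 ng/ml. That of all genes at this level was 0.00038 and 0.014. In the first pair the 4 log2 ratios were 0.43 for Hand1, 1.18 for Gata2, -3.58 for Prrx1 and -1.73 for Runx1. The median is thus not a common shift. Gata2 in both pairs, Prrx1 in the first, and Runx1 and Lmo2 in the second reached 10 CPM in only 1 of the libraries compared, which favors large ratios. The pairs share libraries and are not independent.

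**Figure D1:**
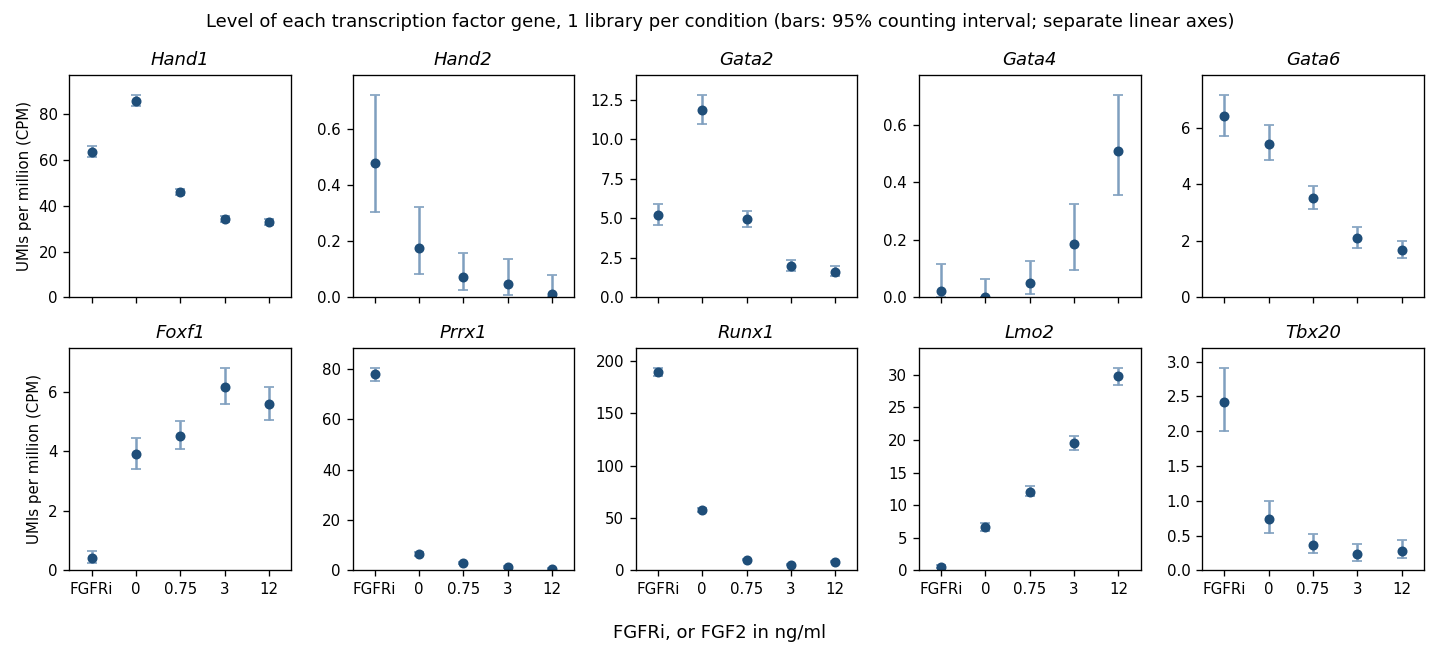
Level in CPM (vertical axes, linear, one scale per gene) of the 10 genes in the 5 libraries (horizontal axis, FGFRi or FGF2 in ng/ml), with 95% counting intervals as bars. Prrx1 is at 77.8 CPM in the FGFRi library and at 6.53 CPM without FGF2, Hand1 and Gata2 peak at 0 ng/ml, and Lmo2 is higher at each step up to 29.8 CPM.

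Runx1, the factor required for blood stem cell emergence, reached 189 CPM in the FGFRi library, and along the FGF2 series of 0, 0.75, 3 and 12 ng/ml its levels were 57.2, 10.2, 5.36 and 8.35 CPM. It was lowest at 3 ng/ml and 1.56-fold higher again at 12 ng/ml (95% interval 1.36 to 1.79). The step from the FGFRi to 0 ng/ml was 3.31-fold lower (3.18 to 3.45), and the step to 0.75 ng/ml was 5.62-fold lower (5.20 to 6.07). Prrx1, a homeobox gene of mesenchyme, stood at 77.8, 6.53, 2.98, 1.27 and 0.537 CPM in the same order. Its fold was largest at the first step, 11.9-fold lower without the inhibitor (10.7 to 13.3). The FGF2 steps were close to each other, 2.19-, 2.35- and 2.36-fold lower, and none could pass the rule of size because Prrx1 was below 10 CPM. Tbx20 had the same order at the FGFRi end, with 2.43, 0.739 and 0.368 CPM at the first 3 conditions, and its levels at 0.75, 3 and 12 ng/ml did not differ beyond counting error. Hand2 gave 23, 10, 6, 3 and 1 UMIs in whole libraries, at most 0.481 CPM.

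Hand1 stood at 63.5, 85.7, 45.9, 34.2 and 32.7 CPM, again from the FGFRi to 12 ng/ml. The last 2 levels did not differ beyond counting error (ratio 1.05, 0.986 to 1.11). Gata2 had the same shape, with 5.23, 11.9, 4.93, 2.01 and 1.64 CPM. Its levels with the FGFRi and at 0.75 ng/ml did not differ beyond counting error, nor did those at 3 and 12 ng/ml. From 0 to 12 ng/ml Hand1 was 2.62-fold lower (2.49 to 2.75) and Gata2 7.24-fold lower (5.94 to 8.89). Gata6 stood between these patterns, with 6.40, 5.44, 3.52, 2.11 and 1.68 CPM.

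Lmo2, which encodes a LIM-only adapter that joins GATA and helix-loop-helix factors on DNA, ran against these genes. Its level was 0.565 CPM with the FGFRi and 6.64, 12.1, 19.5 and 29.8 CPM along the FGF2 series. Each neighboring pair differed beyond counting error, and the rise from 0 to 12 ng/ml was 4.49-fold (4.02 to 5.02). Foxf1 stood at 0.418, 3.89, 4.53, 6.16 and 5.58 CPM, 9.30-fold higher at 0 ng/ml than with the FGFRi (5.88 to 15.5). Its levels at 3 and 12 ng/ml did not differ beyond counting error. Gata4 gave 1, 0, 4, 12 and 36 UMIs. With the 0 UMIs at 0 ng/ml read as 3 counts, its level at 12 ng/ml was 9.63-fold higher, which is not a lower limit. The exact interval of the ratio, which allows slightly more counts, has a lower limit of 7.44.

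These levels were carried by part of the cells. With every cell thinned to 10000 UMIs, a Runx1 UMI was found in 51.1% of cells with the FGFRi (48.6 to 53.5, exact binomial) and in 20.8, 5.36, 2.36 and 2.88% along the FGF2 series. Without thinning these shares were 64.5, 32.3, 11.1, 4.99 and 6.57%. In cells with UMIs of both T and Tbx6, which served as the level that free RNA allows, the thinned Runx1 share was 0.893, 1.34, 0.722 and 1.02% along the same series. Those cells were slightly deeper than cells with neither gene, with median depths of 33063 against 29121 UMIs at 0 ng/ml and 27858.5 against 27440 at 12 ng/ml. The unthinned mean Runx1 count in a positive cell was 8.26 UMIs with the FGFRi and 5.94, 2.74, 3.26 and 3.74 UMIs with rising FGF2.

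Prrx1 was in 33.1% of thinned cells with the FGFRi and in 5.30, 2.40, 1.13 and 0.584% along the FGF2 series. Unthinned, the Prrx1 shares were 46.4, 11.5, 5.06, 2.82 and 1.37%. At 12 ng/ml the lowest state share of Prrx1 was 0.186%, in cells with T and Tbx6. Hand1 was in 31.2, 33.7, 19.1, 15.8 and 16.3% of thinned cells (unthinned 48.9, 51.8, 32.0, 29.1 and 28.7%). Hand1 was uneven among cells: the 10% of cells with most Hand1 held 54.1% of its UMIs with the FGFRi and 75.3% at 12 ng/ml, where 1 cell had 107. Lmo2 was in 0.782, 5.12, 8.80, 14.4 and 19.9% of thinned cells (unthinned 1.41, 11.7, 17.1, 28.3 and 36.5%). For Lmo2, the lowest state share was in Cdh1-only cells, defined next, at 0.820% without FGF2 and 4.72% at 12 ng/ml. Its mean count in a positive cell moved less, from 1.89 UMIs at 0 ng/ml to 2.40 at 12 ng/ml. For Gata2 the thinned share was 6.61% without FGF2 (unthinned 13.6%), against 1.88% in Cdh2-only cells. At 12 ng/ml it was 1.13% (unthinned 3.45%), with 1.06% in Cdh2-only cells and 1.02% in cells with T and Tbx6. Both groups are large parts of that library, so these shares cannot show whether Gata2 stood above the level that free RNA allows. Between separate states at 12 ng/ml, Gata2 was at 2.90 CPM in Cdh1-only and 1.45 CPM in Cdh2-only cells. The counting interval of that ratio ran from 1.23 to 3.17. For Foxf1 the thinned shares were 2.86% and 4.05% (unthinned 5.60 and 8.89%), against 0.137 and 0.295% in Cdh1-only cells.

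Cells were then divided by whether at least 1 UMI of Cdh1, of Cdh2, of both or of neither was detected. Cells with Cdh1 only made up 36.3% with the FGFRi and 43.3, 38.7, 20.8 and 14.1% along the FGF2 series, and cells with Cdh2 only 36.7, 28.7, 38.8, 53.9 and 58.7%. Cells with both were deeper, with medians of 31058 to 39233 UMIs, than cells with neither, at 17441 to 24683.5, so the state depends partly on depth. No doublets were removed, and a droplet with 2 cells can carry both cadherins. Their part in the values of that state was not tested.

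The genes fell on opposite sides of the cadherin divide. Foxf1 and Lmo2 were highest in Cdh2-only cells in all 5 libraries. With the FGFRi this rested on 13 and 22 UMIs, and both intervals overlapped those of cells with neither cadherin. At 0 ng/ml Foxf1 gave 13.5 CPM in Cdh2-only cells (11.7 to 15.5) and 1 UMI in all 734 Cdh1-only cells, and at 12 ng/ml 9.13 against 0.400 CPM. Lmo2 was 18.9-fold higher in Cdh2-only than in Cdh1-only cells at 0 ng/ml (12.4 to 30.3), and 17.3-, 4.63- and 5.76-fold higher at the following doses. Prrx1 was also on this side, 16.1-fold higher in Cdh2-only cells with the FGFRi (174 against 10.8 CPM) and 3.83-fold at 0 ng/ml. Of the 36 Gata4 UMIs at 12 ng/ml, 33 were in Cdh2-only cells and none in Cdh1-only cells.

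Gata2 was on the other side. It was higher in Cdh1-only than in Cdh2-only cells in all 5 libraries, 8.14-fold with the FGFRi, 16.2-fold at 0 ng/ml (22.6 against 1.39 CPM), 8.01- and 3.96-fold at the next doses, and 2.90 against 1.45 CPM at 12 ng/ml. When the states were set after thinning to 10000 UMIs, the FGFRi log2 ratio of Cdh2-only to Cdh1-only cells went from -3.03 to -1.70, that at 0.75 ng/ml went to -2.32, and that at 3 ng/ml from -1.99 to -0.9999, with the same direction. Gata2 in Cdh2-only cells lay between 1.12 and 1.45 CPM in every library, with overlapping intervals, so the lower Gata2 level at 12 ng/ml was found in the other states. From 0 to 12 ng/ml it was 7.81-fold lower in Cdh1-only cells (5.38 to 11.8), and the ratio in Cdh2-only cells was 1.04 (0.623 to 1.81).

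**Figure D2:**
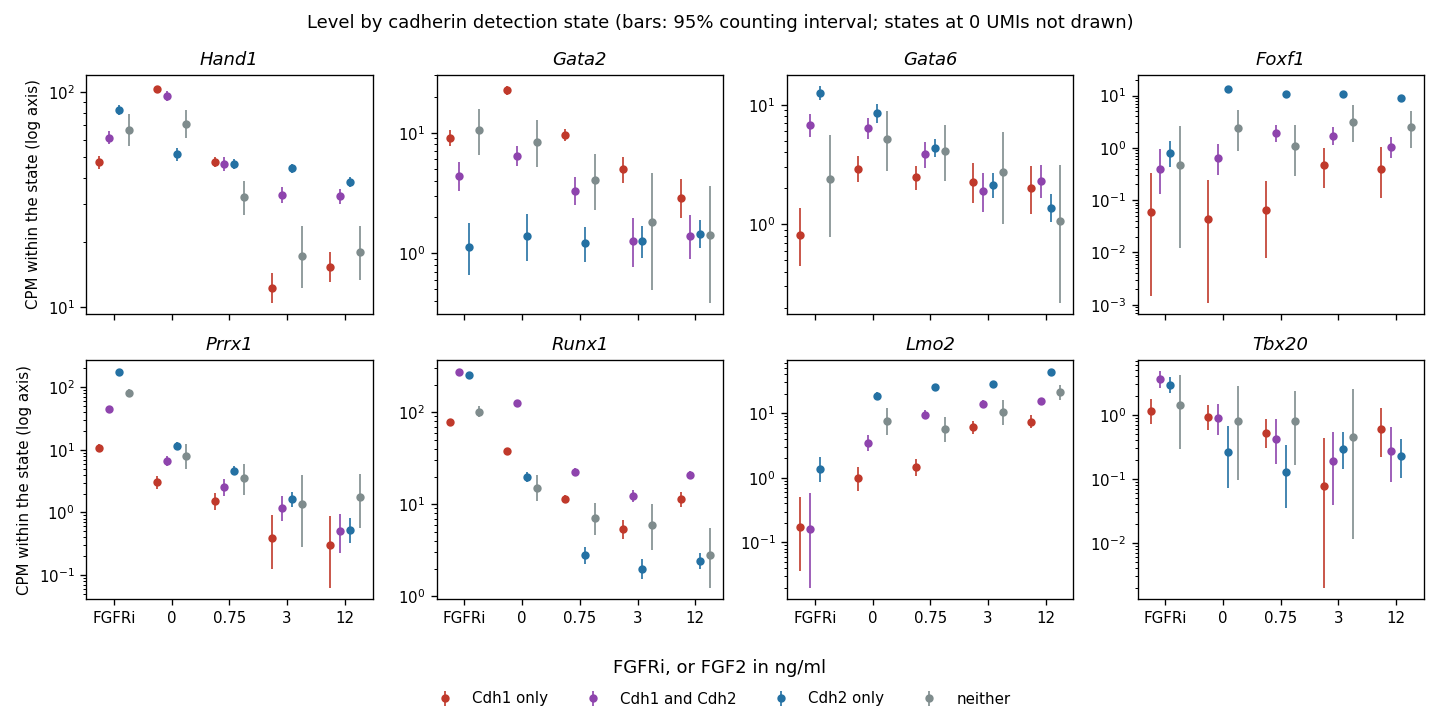
Level in CPM within each cadherin detection state (vertical axes, logarithmic, one scale per gene) against condition (FGFRi or FGF2 in ng/ml), with 95% counting intervals, for 8 of the 10 genes, without Hand2 and Gata4. States with 0 UMIs are not drawn. Foxf1 and Lmo2 are highest in Cdh2-only cells in all 5 libraries, with the FGFRi on only 13 and 22 UMIs. Gata2 is higher in Cdh1-only than in Cdh2-only cells in all 5 libraries. The order of these 2 states changes between libraries for Hand1, Runx1 and Tbx20. For Gata6 it changes only where the interval of the ratio holds 1.

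For Hand1 the order of the states differed between libraries. With the FGFRi it was 1.75-fold higher in Cdh2-only than in Cdh1-only cells (1.60 to 1.91), with 82.3 against 47.1 CPM. At 0 ng/ml the ratio was 0.501 (0.461 to 0.543), with 51.4 against 103 CPM, and at 0.75 ng/ml it was 0.981, with an interval that holds 1. At 3 and 12 ng/ml Hand1 was again higher in Cdh2-only cells, 3.59-fold (3.04 to 4.25) and 2.48-fold (2.10 to 2.94). The level in Cdh2-only cells moved little between 0 and 12 ng/ml, from 51.4 to 46.2, 44.1 and 38.1 CPM, while that in Cdh1-only cells went from 103 to 47.1, 12.3 and 15.4 CPM. The thinned shares ran the same way: at 0 ng/ml 35.0% of Cdh1-only and 25.5% of Cdh2-only cells had a Hand1 UMI, and at 12 ng/ml 8.55% and 19.2%.

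For Runx1 the order also differed, with the FGFRi apart from the FGF2 series. With the FGFRi it was 3.25-fold higher in Cdh2-only than in Cdh1-only cells (3.06 to 3.46), and at 0, 0.75, 3 and 12 ng/ml the ratio was 0.517, 0.247, 0.374 and 0.213, with intervals below 1. The log2 ratio at 12 ng/ml went from -2.23 to -3.20 without the 5% deepest cells and to -1.68 with states set after thinning. With such states it went from -0.95 to -0.60 at 0 ng/ml and from 1.70 to 1.49 with the FGFRi, and no direction turned. From the FGFRi to 0 ng/ml Runx1 was 12.9-fold lower in Cdh2-only cells (11.5 to 14.5) and 2.05-fold lower in Cdh1-only cells (1.88 to 2.24). In all 5 libraries its level was highest in cells with both cadherins, at 271, 127, 22.3, 12.4 and 20.7 CPM. Its thinned share was highest there too, except at 3 ng/ml, where cells with both had 4.45% and cells with neither 4.65%. Gata6 went from 15.4-fold higher in Cdh2-only cells with the FGFRi (8.99 to 28.7) to 2.92-fold at 0 ng/ml and 1.77-fold at 0.75 ng/ml, and its intervals held 1 at 3 and 12 ng/ml. Tbx20, at low levels, was 2.55-fold higher in Cdh2-only cells with the FGFRi (1.49 to 4.54). Its ratio was 0.283 at 0 ng/ml (0.0708 to 0.832) and 0.249 at 0.75 ng/ml (0.0605 to 0.772), each with 4 UMIs in Cdh2-only cells. At 3 and 12 ng/ml the Tbx20 intervals held 1.

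The share of each cadherin state differed between libraries, so the levels at 12 ng/ml were recomputed at the state shares of UMIs found at 0 ng/ml. Lmo2 was then 2.94-fold higher at 12 than at 0 ng/ml, where the plain ratio was 4.49. For Foxf1 the ratio went from 1.43 to 0.769, so that at equal state shares Foxf1 was lower at 12 ng/ml. Within Cdh2-only cells, which held most of its UMIs, it was 1.48-fold lower (1.24 to 1.76). In the other 3 states it was higher, 0.0427 and 0.400 CPM in Cdh1-only cells, 0.632 and 1.06 CPM in cells with both cadherins, and 2.40 and 2.47 CPM in cells with neither, with intervals of the ratio that hold 1. Hand1 was 3.25-fold lower instead of 2.62-fold, Gata2 5.85-fold instead of 7.24-fold, and Runx1 5.09-fold instead of 6.85-fold. Runx1 and Prrx1 were lower at 12 ng/ml within each of the 4 states, by 3.37- to 8.17-fold and 4.52- to 22.1-fold, and Lmo2 was higher within each, by 2.29- to 7.53-fold. The largest Lmo2 ratio was in Cdh1-only cells (0.982 and 7.39 CPM), the state with its lowest share. The part of free RNA in that ratio was not tested.

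The cells were also divided by T and Tbx6. Cells with UMIs of both made up 0 of 1701 cells with the FGFRi, which allows up to 0.217% (exact binomial), and 6.72, 13.7, 32.6 and 44.6% along the FGF2 series. Compared with cells that had neither gene, Lmo2 in these cells was 25.7-fold higher at 0 ng/ml (46.2 against 1.80 CPM) and 20.3-, 8.45- and 4.29-fold higher at the following doses (3.47 to 5.37 at the last). Foxf1 was 11.2-, 17.3-, 4.28- and 3.18-fold higher. Lmo2, listed here for its role in blood formation, and Foxf1, a lateral plate gene, were thus higher with these presomitic marker genes than without them. At 0 ng/ml they stood at 46.2 and 19.9 CPM in cells with T and Tbx6, against 18.6 and 13.5 CPM in all Cdh2-only cells. At 12 ng/ml they stood at 43.0 and 7.69 CPM, against 42.6 and 9.13 CPM. The Cdh2-only cells include cells with T and Tbx6, so these are not separate groups. In the split by T and Tbx6 at 12 ng/ml, Lmo2 and Foxf1 stood at 18.8 and 3.50 CPM in cells with T only. In cells with Tbx6 only they stood at 47.4 and 11.4 CPM.

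Runx1 and Gata2 were low in the same cells. The ratio of Runx1 in cells with T and Tbx6 to cells with neither was 0.0988, 0.0790, 0.0589 and 0.0316 along the FGF2 series (0.0226 to 0.0432 at 12 ng/ml). For Gata2 it was 0.237, 0.259, 0.310 and 0.316, and for Gata6 0.437, 0.403, 0.434 and 0.405. Hand1 had no fixed side: its ratio was 0.654, 1.58, 3.42 and 0.813, and none of the 4 intervals held 1. At 12 ng/ml the cells with neither gene held 395 Hand1 UMIs in 307 cells, and the part of single cells with many Hand1 UMIs was not tested. Detection of T and Tbx6 depends on depth, as does that of the cadherins. The ratios by T and Tbx6 were not recomputed under other settings.

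**Figure D3:**
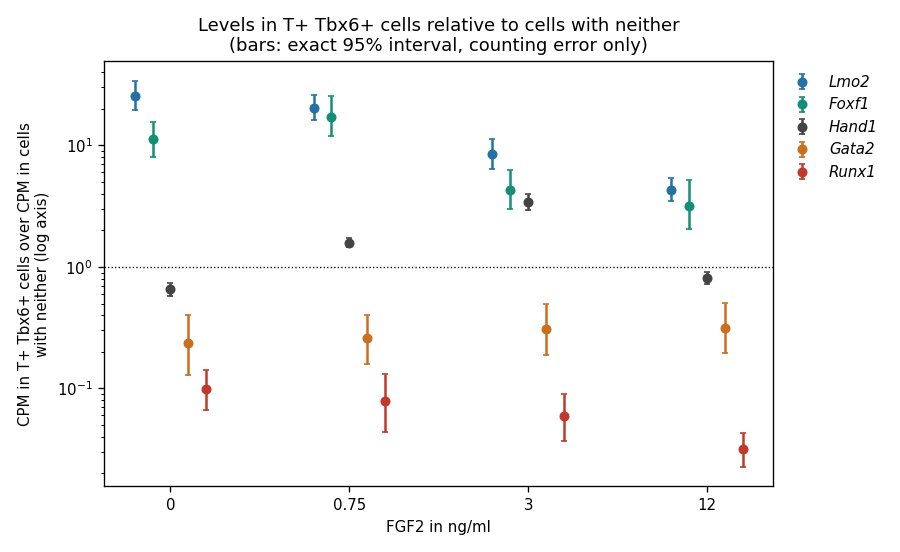
Ratio of the level in cells with UMIs of T and Tbx6 to that in cells with neither (vertical axis, logarithmic) at the 4 FGF2 doses (horizontal axis, ng/ml), with exact 95% intervals for counting error, for 5 of the 10 genes. Lmo2 and Foxf1 lie above 1 and Gata2 and Runx1 below 1 at all 4 doses, and Hand1 crosses the line between doses. The FGFRi library had no cell with both genes and is not drawn.

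Detection of several of the 10 genes in 1 cell was most frequent with the FGFRi, where the single shares of Runx1 and Prrx1 were also highest. The shares of cells with several genes that the single shares alone would give were not computed. At 10000 UMIs per cell, at least 1 of the 10 was found in 74.97, 55.0, 34.0, 32.3 and 37.8% of cells, at least 2 in 38.4, 20.3, 9.39, 7.52 and 8.39%, and at least 3 in 11.8, 3.45, 1.52, 1.42 and 0.876%. Pairs were compared with the number of cells expected from the product of their single shares within a library, where at least 10 cells were expected. Hand1 and Foxf1 were found together 1.42, 3.44, 3.45 and 2.40 times as often as that along the FGF2 series, in 23, 46, 47 and 38 cells. Prrx1 and Hand1 were found together 1.35 times as often with the FGFRi (231 cells). Runx1 and Lmo2 were found together 0.502, 0.470 and 0.438 times as often at 0, 0.75 and 12 ng/ml, in 9, 6 and 6 cells. Foxf1 and Runx1 shared 1 cell at 0 ng/ml where 10.0 were expected. For Gata2 and Runx1 at 0 ng/ml the ratio was 0.519, in 12 cells. It was 1.15 without thinning and 1.35 at 5000 UMIs. Its direction was thus not stable and did not follow depth.

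**Figure D4:**
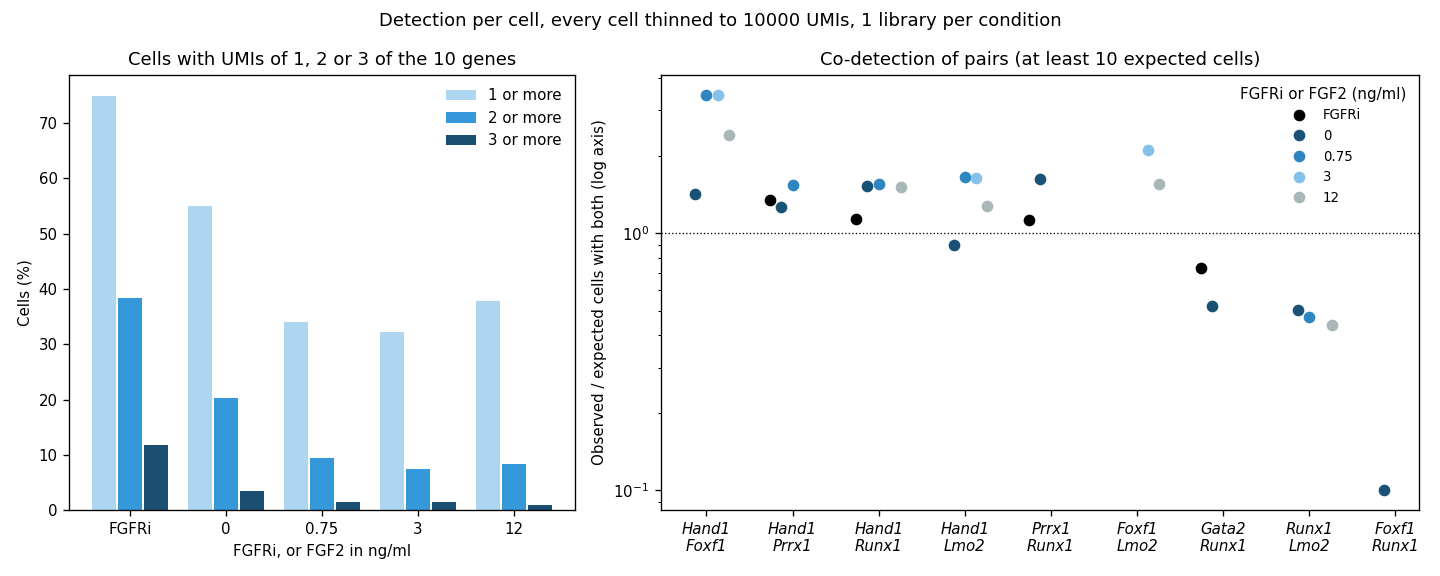
Left, percent of cells in which at least 1, 2 or 3 of the 10 genes had a UMI, by condition. Right, cells with both genes of a pair over the number expected from the single shares (vertical axis, logarithmic), one point per library, for 9 pairs with at least 10 expected cells. The share with at least 2 genes is 38.4% with the FGFRi and 7.52 to 9.39% at the 3 FGF2 doses, and the Runx1 pairs with Lmo2 and Foxf1 lie below 1. The Gata2 and Runx1 point at 0 ng/ml turns to 1.15 without thinning.

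Levels were also compared between cells with and without a Hand1 UMI. Foxf1 was 5.51-, 9.11-, 10.2- and 5.67-fold higher in Hand1-positive cells along the FGF2 series, with the interval at 3 ng/ml running from 7.81 to 13.4. Runx1 was higher in Hand1-positive cells in all 5 libraries, 1.74-, 4.16-, 2.38-, 1.90- and 1.97-fold. Detection of Hand1 depends on depth, whose part in these ratios was not tested. Gata2 was 0.335-fold as high in Hand1-positive cells with the FGFRi (0.251 to 0.444) and 1.66-, 3.96-, 2.26- and 2.02-fold as high along the FGF2 series.

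Other markers were then set beside Hand1 within each cadherin state. The list of 20 mesenchyme and extraembryonic mesoderm genes and the list of 14 trophoblast and extraembryonic ectoderm genes both hold Krt8 and Krt18, keratins of simple epithelia. At 0 ng/ml the first list summed to 5480 CPM in Cdh1-only cells with a Hand1 UMI and 3551 CPM in those without, and to 1973 and 1009 CPM in Cdh2-only cells. The second list gave 3551 and 2463 CPM in Cdh1-only cells and 488 and 481 CPM in Cdh2-only cells, and presomitic genes gave 26.5 and 45.2 CPM and 411 and 539 CPM. The gap between the cadherin states in these sums was thus present with and without Hand1. In all cells at 0 ng/ml, Krt8 stood at 823 CPM and Krt18 at 1082 CPM, where the first list summed to 3972 CPM and the second to 2148 CPM. The part of these 2 keratins in the gap was not tested. Within Cdh1-only cells, Acta2, smooth muscle actin, was 4.82-fold higher in cells with a Hand1 UMI than in cells without (4.22 to 5.53), Pmp22 was 5.32-fold higher, and Msx1 was lower, at 80.4 against 192 CPM.

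Among the 8761 genes at 10 CPM or more in any library, the 3 whose log2(CPM + 1) profile over the 20 combinations of library and cadherin state was most like that of each gene were taken by Pearson correlation. For Runx1 they were Rdh10 (r = 0.986), Cdkn2b (0.982) and Tnc (0.980), a retinol dehydrogenase, a cell cycle inhibitor and a matrix glycoprotein. Cdkn2b stood at 177, 42.3, 6.13, 2.97 and 4.25 CPM. For Prrx1 they were Ndnf (0.968), Cops9 (0.967) and Cox6b1 (0.963), and for Lmo2 Psat1 (0.983), Xpot (0.979) and Snu13 (0.978). For Gata2 they were Fxyd3 (0.907), Mbnl3 (0.906) and Ctdspl (0.905). The best match of Hand1 was lower, Dkk1, a secreted Wnt inhibitor, with 0.848, followed by Lifr (0.831) and Rnf166 (0.816). Among the 10 genes, Prrx1 and Runx1 were most alike (0.778), and Lmo2 was opposed to Runx1 (-0.804), Gata2 (-0.732), Prrx1 (-0.624) and Hand1 (-0.437). The profiles share libraries and depth, and the values are descriptions. A correlation compares the shape of profiles and not the size of change. From the FGFRi to 12 ng/ml Prrx1 went from 77.8 to 0.537 CPM. Cops9 went from 183 to 119 CPM and Cox6b1 from 717 to 533 CPM over the same pair. Lmo2 went from 0.565 to 29.8 CPM and Snu13 from 278 to 432 CPM.

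Blood and vessel genes were mostly near 0. Of 22 blood and endothelial markers 1 reached 5 CPM in any library, the receptor gene Kit, which is also expressed in other cell types and passed upward from the FGFRi (2.80 CPM) to 0 ng/ml (11.4 CPM). Emcn, Hba-x and Hbb-bh1 had no UMI in any library, and Tal1, the partner of LMO2 in blood progenitors, stayed at or below 0.0706 CPM. The receptor gene Kdr was highest with the FGFRi at 3.51 CPM, as were Fli1 at 2.05 CPM and Pecam1 at 3.91 CPM. Other genes of the list had another order. Etv2 had no UMI with the FGFRi and 0.440 to 0.975 CPM along the FGF2 series. Sox17 stood at 0.293 CPM with the FGFRi and 3.36 CPM at 0 ng/ml. The list summed to 14.1, 19.98, 24.6, 19.1 and 15.4 CPM, and without Kit to 11.3, 8.55, 5.58, 4.27 and 3.77 CPM.

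Among 13 cardiac markers, some regulators and some muscle genes were near 0 and other muscle genes were not. The regulator gene Isl1 stood at 0.251 CPM with the FGFRi and 0.704 to 1.45 CPM along the FGF2 series. Tbx5 had no UMI, Nkx2-5 stayed at or below 0.105 CPM and Myl7 at or below 0.0858 CPM. Cardiac actin, Actc1, stood at 24.8, 12.9, 2.86, 2.45 and 2.01 CPM and passed downward from 0 to 12 ng/ml. Tnni1 lay between 5.69 and 9.93 CPM, and Smarcd3, a chromatin remodeling subunit, between 2.37 and 8.26 CPM. The list summed to 53.0 CPM with the FGFRi and 17.4 to 28.8 CPM in the other libraries.

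Mesenchyme genes were mostly lower without the FGFRi, as Prrx1 and Runx1 were. Of 20 listed mesenchyme and extraembryonic mesoderm genes 17 reached the level of the rule from the FGFRi to 0 ng/ml, and 10 passed downward and 1, the homeobox gene Msx1, upward (49.5 to 138 CPM). Of all genes at this level 7.99% passed. This list and the others were chosen with earlier results of these data known. Among genes of smooth muscle and the cytoskeleton, Acta2 went from 1008 to 141 CPM, Tagln from 1915 to 478 CPM, Ahnak from 704 to 313 CPM and Vim, vimentin, from 1203 to 320 CPM. Pmp22 went from 250.1 to 67.7 CPM and the bHLH gene Twist1 from 84.9 to 21.0 CPM. Among matrix genes, Postn went from 24.3 to 1.94 CPM, Col1a1 from 24.2 to 2.18 CPM, Col1a2 from 49.97 to 17.4 CPM and Col3a1 from 28.2 to 10.2 CPM. These 4 and Fbn1 (13.4 to 5.77 CPM) were also the 5 of 5 fibroblast genes at that level, all downward. From 0 to 12 ng/ml 10 of 15 genes of this list passed downward and none upward, against 5.91% of all genes. Krt8, Krt18 and Wnt6 among them are also on the lists of extraembryonic or surface ectoderm below. Acta2 was then at 15.7 CPM, Tagln at 41.96 CPM, Ahnak at 64.3 CPM, Pmp22 at 21.96 CPM and Col3a1 at 2.26 CPM. The growth factor gene Igf2 went from 272 to 75.3 CPM, Wnt6 from 126 to 41.96 CPM, Msx2 from 77.1 to 31.5 CPM, Krt8 from 823 to 328 CPM and Krt18 from 1082 to 305 CPM. The list summed to 8344 CPM with the FGFRi and 1335 CPM at 12 ng/ml. Its median log2 ratio was -1.38 and -1.44 over these pairs, against 0.011 and 0.0018 over all genes at 5 CPM. The part of these cells in the Prrx1 and Runx1 levels was not tested.

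Most genes of extraembryonic and surface ectoderm at the level of the rule were lower at 12 than at 0 ng/ml. Of all genes at this level 7.99% passed from the FGFRi to 0 ng/ml and 5.91% from 0 to 12 ng/ml. Cdx2 was not, with 109, 188, 218 and 185 CPM along the FGF2 series. Tfap2c and Dlx5 were higher at 0.75 ng/ml (46.9 and 15.4 CPM) than at 0 ng/ml (44.6 and 10.3 CPM). Of 8 trophoblast and extraembryonic ectoderm genes 3 passed upward from the FGFRi to 0 ng/ml, Tfap2c (20.8 to 44.6 CPM), Ascl2 (4.6 to 24.9 CPM) and the caudal gene Cdx2 (4.64 to 109 CPM), and Krt7 passed downward (29.8 to 12.2 CPM). From 0 to 12 ng/ml 6 of 8 passed downward and none upward: beside Krt8 and Krt18 these were Tfap2c, then at 19.9 CPM, Ascl2 at 3.998 CPM, Krt7 at 1.95 CPM and Gata3 at 4.10 CPM. Of the surface ectoderm genes Dlx5 passed upward (3.53 to 10.3 CPM) and Krt14 downward (10.7 to 2.29 CPM) among 10 over the first pair. Over the second pair 6 of 9 passed downward, Wnt6 as above, Tfap2a (47.6 to 6.39 CPM), Trp63 (13.9 to 1.07 CPM), Dlx3 (15.8 to 2.88 CPM), Dlx5 (to 4.95 CPM) and Grhl2 (14.9 to 7.35 CPM).

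Most presomitic genes were higher with FGF2. Lfng, also on this list, had another order and peaked under the inhibitor (8.05 CPM). Along the FGF2 series its levels were 4.01, 2.53, 3.95 and 5.20 CPM. Because Lfng stayed below 10 CPM, it could not pass the rule of size. T, Hes7 and Rspo3 passed upward from the FGFRi to 0 ng/ml, 3 of 3, and 7 of 7 passed upward from 0 to 12 ng/ml. Over these pairs 7.99% and 5.91% of all genes passed. Between 0 and 12 ng/ml T went from 26.7 to 208 CPM, Tbx6 from 5.86 to 49.0 CPM, Hes7 from 29.3 to 102 CPM, Rspo3 from 93.0 to 432 CPM and Mesp1 from 1.58 to 15.9 CPM. The Notch ligand genes Dll1 and Dll3 went from 8.82 to 67.4 CPM and from 7.69 to 53.1 CPM. Lateral and intermediate plate genes were divided. Meis1 (30.3 to 13.03 CPM) and Meis2 (237 to 96.9 CPM) passed downward from the FGFRi to 0 ng/ml among 5. From 0 to 12 ng/ml, among 7, both passed downward again, to 2.60 and 45.4 CPM, with Irx3 (23.8 to 6.19 CPM), while Hoxb6 (9.65 to 30.8 CPM) and Lhx1 (1.60 to 13.4 CPM) passed upward. Of 14 endoderm genes 2 reached 5 CPM, and Dab2 passed downward from the FGFRi to 0 ng/ml, 16.7 against 7.01 CPM.

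Relatives and partners of the 10 factors were listed too. Of 26 paralogs in the same families 16 were not among the 10, 4 of these reached 5 CPM, and 3 reached the level of the rule in each pair. Prrx2 passed downward from the FGFRi to 0 ng/ml, 44.1 against 15.1 CPM, and again from 0 to 12 ng/ml, where it stood at 6.29 CPM. Gata3 passed downward from 0 to 12 ng/ml, 11.8 against 4.10 CPM. Of 18 partner genes 11 reached the level, and from the FGFRi to 0 ng/ml Twist1 alone passed, while from 0 to 12 ng/ml none did. Over these pairs 7.99% and 5.91% of all genes passed, so the partner counts were near the share of all genes. Cbfb, whose product pairs with RUNX proteins, stood between 31.3 and 33.8 CPM in all 5 libraries, and Ldb1, which binds LMO2, between 46.2 and 55.6 CPM.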

How the data were processed

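The single-cell libraries (10x Genomics 3' v3.1) were aligned to mm10 and counted by the authors with Cell Ranger, and the deposited matrices hold raw UMI counts per gene and barcode, 1 matrix per library. The matrix header names version 5.0.1. Barcodes with fewer than 2500 genes or more than 10% mitochondrial UMIs were removed here, as in the study's methods. The filter kept 321559590 UMIs, 96.7% of all. UMIs of the retained cells were summed per library, scaled to CPM, and compared without a pseudocount. The shares were also computed with each cell thinned to 10000 or 5000 UMIs, and 9 to 39 cells per library under 10000 UMIs were left out. Cadherin states needed at least 50 cells. The rule of size needed 10 CPM in 1 of the libraries and a ratio of 2. On simulated counts for 0 to 12 ng/ml over 32285 genes, it recovered 100% of 200 changed genes and called 0% of the unchanged. The changed genes were simulated above the minimum level and the minimum ratio of the rule, with counting noise only. This check therefore does not cover genes near those limits or differences between cultures. No doublet caller was run. All 10 genes were named, with the list genes past the rule of size from the FGFRi to 0 or from 0 to 12 ng/ml and, for each of the 5 genes at 10 CPM or more, the 3 genes most like it by correlation. The 10 genes and all lists were chosen with earlier results of these data known. Positions came from GENCODE vM21 on GRCm38 (32235 of 32285 identifiers matched) and upstream sequences from RefSeq. Software was Python 3.11.15, numpy 2.4.6, scipy 1.17.1, pandas 2.3.3, matplotlib 3.10.9, R 4.3.3 and edgeR 4.0.16 (TMM factors only).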

Additional observations from a re-analysis of the deposited data

Results flagged for a closer look

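For 2 of the 10 genes, Hand1 and Gata6, the ratio between 2 libraries had opposite directions in the Cdh1-only and Cdh2-only states with both 95% counting intervals leaving out 1, which is why these values are listed. Other genes, such as Gata2 and Foxf1, had opposite directions with at least 1 interval that holds 1. With 1 library per condition the difference between the states was not tested. From the FGFRi to 0 ng/ml Hand1 had a ratio of 2.18 in Cdh1-only cells (95% counting interval 2.01 to 2.37) and 0.625 in Cdh2-only cells (0.571 to 0.683). Gata6 had a ratio of 3.56 in Cdh1-only cells (1.99 to 6.86, from 14 and 68 UMIs) and 0.675 in Cdh2-only cells (0.537 to 0.847) over the same pair. From the FGFRi to 12 ng/ml Gata6 had a ratio of 2.45 in Cdh1-only cells (1.18 to 5.25, from 14 and 20 UMIs) and 0.109 in Cdh2-only cells (0.0797 to 0.148). All 6 ratios kept their direction with states set after thinning or at 2 UMIs. They also kept it with at most 5% mitochondrial UMIs and without the 5% deepest cells. The size of 1 ratio moved outside its counting interval. With states set after thinning, the log2 ratio of Hand1 in Cdh2-only cells went from -0.678 to -0.344.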

How the results depend on the processing

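No paired analysis was possible because each condition has 1 library. The counts of the 10 genes past the rule of size were recomputed under 9 alternatives for each of 6 pairs of libraries. They stayed within 1.5 times the reported count with all barcodes, with each cell weighted the same, with TMM scaling, without mitochondrial genes in the total and without the 5% deepest cells. With at most 5% mitochondrial UMIs, 1 gene instead of 0 passed from 0.75 to 3 ng/ml. A minimum of 50 CPM left 1 from 0 to 0.75 ng/ml and 2 from 0 to 12 ng/ml, and a minimum of 5 CPM gave 6 from the FGFRi to 12 ng/ml. A ratio of 1.5 gave 4 from 0 to 0.75 ng/ml, 2 from 0.75 to 3 ng/ml and 1 from 3 to 12 ng/ml. Over all genes this ratio gave 1845 instead of 675 from the FGFRi to 0 ng/ml and 1067 instead of 487 from 0 to 12 ng/ml, and a minimum of 50 CPM gave 212 and 130. For the other pairs the same 2 settings gave 438 and 46 instead of 140 (0 to 0.75 ng/ml), 262 and 13 instead of 69 (0.75 to 3 ng/ml), 75 and 0 instead of 7 (3 to 12 ng/ml) and 3444 and 666 instead of 1763 (FGFRi to 12 ng/ml), and a minimum of 5 CPM gave 109 from 0.75 to 3 ng/ml and 14 from 3 to 12 ng/ml. For the remaining pairs at 5 CPM, and for all pairs at 5% mitochondrial UMIs, the count over all genes stayed within 1.5 times the reported one. Shares of all genes under the alternatives are not given. Of 164 ratios between cadherin states 2 had another sign, Hand1 at 0.75 ng/ml and Gata6 at 3 ng/ml, whose reported intervals hold 1. In size, 10 of the 164 lay outside the reported interval. Among them, the Hand1 log2 ratio of Cdh2-only to Cdh1-only cells at 0 ng/ml went from -0.999 to -0.741 with states set after thinning. At 3 ng/ml it went from 1.84 to 2.31 with at most 5% mitochondrial UMIs. Of 341 alternative log2 ratios of single genes 1 had another sign, and none of the 209 whose reported ratio was at least 2-fold. In size, 13 of the 341 lay outside the reported counting interval. From 0 to 12 ng/ml Runx1 went from -2.78 to -3.08 without the 5% deepest cells. Over the same pair Hand1 went from -1.39 to -1.48 with each cell weighted the same. Gata2 from the FGFRi to 0 ng/ml went from 1.18 to 1.47 with at most 5% mitochondrial UMIs. The co-detection of Gata2 and Runx1 at 0 ng/ml turned direction, from 0.519 to 1.35 at 5000 UMIs and 1.15 unthinned. Of 50 orders of thinned shares between libraries for the 5 higher genes, 1 changed against the unthinned. Levels under 1 CPM rest on few UMIs, and at this depth no difference between neighboring FGF2 doses was detectable for Hand2, nor among 0.75, 3 and 12 ng/ml for Tbx20. The causes were not tested.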
